A study of Mus musculus with 12 samples.

Results

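The co-stimulatory and checkpoint ligand genes of macrophages, Cd40, Cd80, Cd86, Cd83, Cd274 (PD-L1), Pdcd1lg2 (PD-L2), Icosl and Icam1, were followed across wild-type and Alpk1-deficient cells. They were taken by symbol from the count table of bone-marrow-derived macrophages, which gave 8 of the 37542 genes in the rows used. From one point of the table on, the KO columns sat 1 row below their identifiers, and the rows used are those above it. Of these 8 genes, 7 were among the 12261 genes with enough reads to test, and Pdcd1lg2 was not. ALPK1 is a kinase of the cytosol that senses the bacterial sugar ADP-heptose (ADP-Hep), and the study asked which transcriptional responses to ADP-Hep depend on it. Bone marrow cells of C57BL/6N mice, wild-type (WT) or Alpk1 knockout (KO, Alpk1-/-), were grown into macrophages for 7 days in medium conditioned by L929 cells. RNA was sequenced after 4 h with PBS, the vehicle control, or with 100 µM ADP-Hep. The 4 groups, WT with PBS, WT with ADP-Hep, KO with PBS and KO with ADP-Hep, had 3 libraries each. The sources used here do not give the deleted part of Alpk1, the age of the mice or the number of animals or cultures behind the libraries. The spread that the p-values rest on is that of these 12 libraries and can be partly or wholly technical.

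T cells need a signal through their antigen receptor and a second, co-stimulatory signal from the presenting cell. CD80 and CD86 give that signal through CD28 and are also bound by the inhibitory receptor CTLA-4, while ICOSL binds ICOS on activated T cells. CD40 is the receptor through which CD40 ligand on T cells activates, or licenses, the macrophage, and CD83 is a maturation marker that is known to stabilise CD86 and MHC class II on the cell surface. PD-L1 and PD-L2 are the ligands of the checkpoint receptor PD-1, which restrains T cells, and ICAM-1 is the adhesion ligand of the integrin LFA-1. Several of these genes are textbook targets of the transcription factor NF-kB, and PD-L1 is a textbook target of interferon-STAT-IRF1 signalling.

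The promoters of 4 of the 8 genes are shown because 3 of those genes rose together in WT cells and the fourth, Pdcd1lg2, lies 22.8 kb from Cd274. Each run is 300 bases, 5′ to 3′ on the plus strand, from 250 bases before to 50 after a RefSeq start on GRCm38.p6, and capitals mark motif matches. The Icam1 window is chr9:21015690-21015989, the Icosl window chr10:78069118-78069417, the Cd274 window chr19:29367188-29367487 and the Pdcd1lg2 window chr19:29410669-29410968.
Icam1: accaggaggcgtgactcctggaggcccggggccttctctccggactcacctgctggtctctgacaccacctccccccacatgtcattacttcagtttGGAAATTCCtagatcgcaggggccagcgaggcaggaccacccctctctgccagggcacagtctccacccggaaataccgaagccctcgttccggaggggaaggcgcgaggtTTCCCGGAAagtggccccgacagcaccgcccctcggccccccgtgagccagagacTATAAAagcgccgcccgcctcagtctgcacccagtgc
Icosl: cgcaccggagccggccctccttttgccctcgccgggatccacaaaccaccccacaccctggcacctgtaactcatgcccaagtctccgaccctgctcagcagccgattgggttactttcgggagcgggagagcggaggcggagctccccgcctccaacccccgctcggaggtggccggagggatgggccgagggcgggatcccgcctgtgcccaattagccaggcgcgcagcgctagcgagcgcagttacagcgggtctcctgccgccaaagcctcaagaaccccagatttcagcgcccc
Cd274: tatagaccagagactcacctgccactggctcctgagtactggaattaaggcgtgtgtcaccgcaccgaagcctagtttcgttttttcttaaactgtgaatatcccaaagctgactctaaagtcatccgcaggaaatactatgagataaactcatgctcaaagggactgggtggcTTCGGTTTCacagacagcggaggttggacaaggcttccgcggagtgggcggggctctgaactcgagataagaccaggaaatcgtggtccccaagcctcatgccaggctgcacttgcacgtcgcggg
Pdcd1lg2: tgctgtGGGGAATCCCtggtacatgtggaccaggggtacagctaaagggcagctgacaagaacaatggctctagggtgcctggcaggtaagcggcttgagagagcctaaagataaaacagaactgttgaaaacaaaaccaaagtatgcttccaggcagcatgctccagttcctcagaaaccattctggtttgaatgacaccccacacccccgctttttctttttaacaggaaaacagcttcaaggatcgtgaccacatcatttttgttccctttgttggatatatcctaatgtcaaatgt
The 5 motifs searched on both strands were the NF-kB consensus, the related palindrome GGAANTTCC, the STAT-type palindrome TTCNNNGAA, the interferon-response core GAAANNGAA and TATAAA. In Icam1, GGAANTTCC matched 198 bases upstream of the GENCODE gene start, TTCNNNGAA matched 87 bases upstream and TATAAA matched 32 bases upstream. In Cd274, GAAANNGAA matched on the minus strand, 93 bases upstream. In Pdcd1lg2, the NF-kB consensus matched 244 bases upstream, and in Icosl none of the 5 motifs was in the window. No match overlapped another motif. Of 32851 RefSeq promoters of this length, 4.51% held the NF-kB consensus, 0.928% GGAANTTCC, 8.3% TTCNNNGAA, 8.56% GAAANNGAA and 13.6% TATAAA. These matches describe letters in these windows and are not shown to be bound. The RefSeq set also held a Cd80 promoter, which is not shown because its whole window lies far inside the GENCODE gene. Its TATAAA match is 3376 bases past the gene start. Cd40, Cd83 and Cd86 had no entry in the set. The RefSeq start of Icosl also lies inside its GENCODE gene, so fewer than 250 bases of the Icosl window are upstream of the gene start.

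On mm10 (GENCODE M21), Cd40 (ENSMUSG00000017652) spans chr2:165055627-165072948 and Icam1 (ENSMUSG00000037405) spans chr9:21015985-21028817, both on the plus strand. Icosl (ENSMUSG00000000732) lies at chr10:78069302-78083913, Cd83 (ENSMUSG00000015396) at chr13:43784775-43803132 and Cd80 (ENSMUSG00000075122) at chr16:38455561-38496335, all on the plus strand. Cd86 (ENSMUSG00000022901) lies on the minus strand at chr16:36603869-36666081. Cd274 (ENSMUSG00000016496) at chr19:29367455-29388095 and Pdcd1lg2 (ENSMUSG00000016498) at chr19:29410919-29471161 are neighbours on the plus strand. An annotated antisense gene overlaps an exon of Cd274, Icam1 and Pdcd1lg2. The strand setting of the counting is not given in the sources used here, so reads of such partners cannot be told apart.

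Libraries held 16110654 to 31333973 counts, of which 12307826 to 25742912 lay in the rows used. Levels are given as CPM, read counts relative to library size after TMM scaling. Alpk1 itself read 30.1, 32.1 and 25.9 CPM in WT cells with PBS and 53.8, 55.3 and 52.3 with ADP-Hep, against 22.3, 20.3 and 21.3 in KO cells with PBS and 21.6, 19.2 and 22.5 with ADP-Hep. Reads of Alpk1 remained in KO libraries, at a level 0.45 ± 0.08 lower on the log2 scale (± SE) under PBS (edgeR adjusted p = 0.00037). Since the deleted part is not given, this level does not check the deletion. The 12 macrophage markers summed to 26300 to 31400 CPM in every library. The T and NK cell markers summed to at most 0.669 CPM, with Cd3e, Cd3g and Ncr1 at 0 counts throughout. The 6 B cell markers summed to 7.69 to 17.9 CPM, most of it from Cd79b, with Pax5 at 0. Cd79b, the one B cell marker tested, changed by -0.4 in WT cells with ADP-Hep (adjusted p = 0.0041, edgeR), and its response differed between genotypes by -0.43 (adjusted p = 0.027). Its part in the ligand results was not tested. In bulk RNA, fewer cells of a type and less RNA per cell cannot be told apart.

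In WT macrophages, 4 h of ADP-Hep raised 6 of the 7 tested ligand genes, in steps of very different size. Cd40 rose 24.4-fold, Icam1 9.3-fold, Icosl 7.81-fold and Cd274 3.33-fold, while Cd80 rose 1.52-fold and Cd86 1.31-fold. Cd83 was not called, and no ligand gene fell. Over all 12261 genes, edgeR's quasi-likelihood test called 31.9% higher and 31.6% lower at a Benjamini-Hochberg adjusted p under 0.05, so a call was common in these cells. That is 3914 genes higher and 3871 lower, and with library totals in place of TMM scaling it was 2990 and 4927. The 7 tested genes had a median log2 change of 1.7, against -0.0058 over all genes tested. Some dendritic cell markers rose too: the 10 markers summed to 1.82 to 2.56 CPM with PBS and 8.4 to 8.89 CPM with ADP-Hep in WT cells. In KO cells they summed to 1.92 to 3.55 and 1.64 to 2.83 CPM. Most of the WT rise came from Fscn1 (group means 0.385 and 4.71 CPM) and Ccl22 (0.191 and 1.77 CPM). Of 4 tested, 3 were called higher in WT cells, Fscn1, Ccl22 and Zbtb46. Itgae was not called (log2 change -0.0069 ± 0.41, adjusted p = 0.99, edgeR). The rest had too few reads to test, with Xcr1 in WT cells and Cd209a in all libraries at 0. The part of these markers in the rises was not tested.

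Cd40, the receptor for T-cell help, was low without stimulus. It read 2.74, 2.78 and 2.17 CPM in the WT libraries with PBS, from 42, 39 and 51 counts, and 59.0, 65.0 and 59.0 CPM with ADP-Hep, from 1448, 1457 and 683 counts. The 3 ADP-Hep libraries lay far above the 3 PBS libraries, with no overlap. The log2 change was 4.61 ± 0.11 (SE, adjusted p = 9.1e-22, edgeR).

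Icam1, the adhesion ligand, started high and still rose strongly. It went from 49.1, 48.3 and 49.4 CPM with PBS to 437, 450 and 480 CPM with ADP-Hep in WT cells, a log2 change of 3.22 ± 0.05 (adjusted p = 1.7e-24, edgeR). The libraries of each group were close together and the groups did not overlap.

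Icosl, the ligand for ICOS, moved from 10, 12.1 and 12.3 CPM to 87.2, 88.1 and 96.8 CPM, a log2 change of 2.97 ± 0.07 (adjusted p = 2.2e-21, edgeR). Every ADP-Hep library was above every PBS library. Its fold change was above those of both CD28 ligands.

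The CD28 ligands moved little. Cd80 read 10.6, 10.5 and 9.56 CPM with PBS and 15.2, 16.5 and 14.5 CPM with ADP-Hep, a log2 change of 0.61 ± 0.10 (adjusted p = 4.8e-06, edgeR). Cd86 read 16, 15.5 and 17.4 CPM with PBS and 20.8, 23.4 and 19.8 CPM with ADP-Hep, a log2 change of 0.39 ± 0.08 (adjusted p = 8.3e-05, edgeR). For both genes the groups did not overlap, but the steps were a few CPM. Against a null hypothesis of at most a 1.5-fold change (edgeR's glmTreat), neither rise was called (adjusted p = 0.71 for Cd80 and 1 for Cd86).

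Cd83, the maturation marker, did not follow the other genes. It read 23.7, 25.4 and 25.4 CPM with PBS and 24.9, 23.3 and 19.9 CPM with ADP-Hep in WT cells. The groups overlapped, and the log2 change was -0.11 ± 0.08 (95% confidence interval -0.27 to 0.05, adjusted p = 0.24, edgeR). With library totals in place of TMM scaling it was called lower, at -0.22 (adjusted p = 0.025).

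The 2 checkpoint ligands sit side by side on chromosome 19 and differed in abundance. Cd274 went from 42.8, 40.4 and 37.3 CPM with PBS to 131, 137 and 131 CPM with ADP-Hep in WT cells, with no overlap. Its log2 change was 1.74 ± 0.06 (adjusted p = 1.6e-18, edgeR). Pdcd1lg2 had 4, 4 and 8 counts with PBS and 7, 15 and 6 counts with ADP-Hep in WT cells, group totals of 16 and 28, and these overlapped. In KO cells it had 1, 3 and 1 counts with PBS and 3, 0 and 3 counts with ADP-Hep. The library at 0 counts allows up to 3 counts, or 0.236 CPM, from counting error alone. In a fit with no filter on low counts, its log2 change in WT cells was 0.67 ± 0.57 (adjusted p = 0.44, edgeR), so no response of Pdcd1lg2 was detectable at this depth. Its antisense partner A930007I19Rik held 283 to 448 counts per group.

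**Figure D1:**
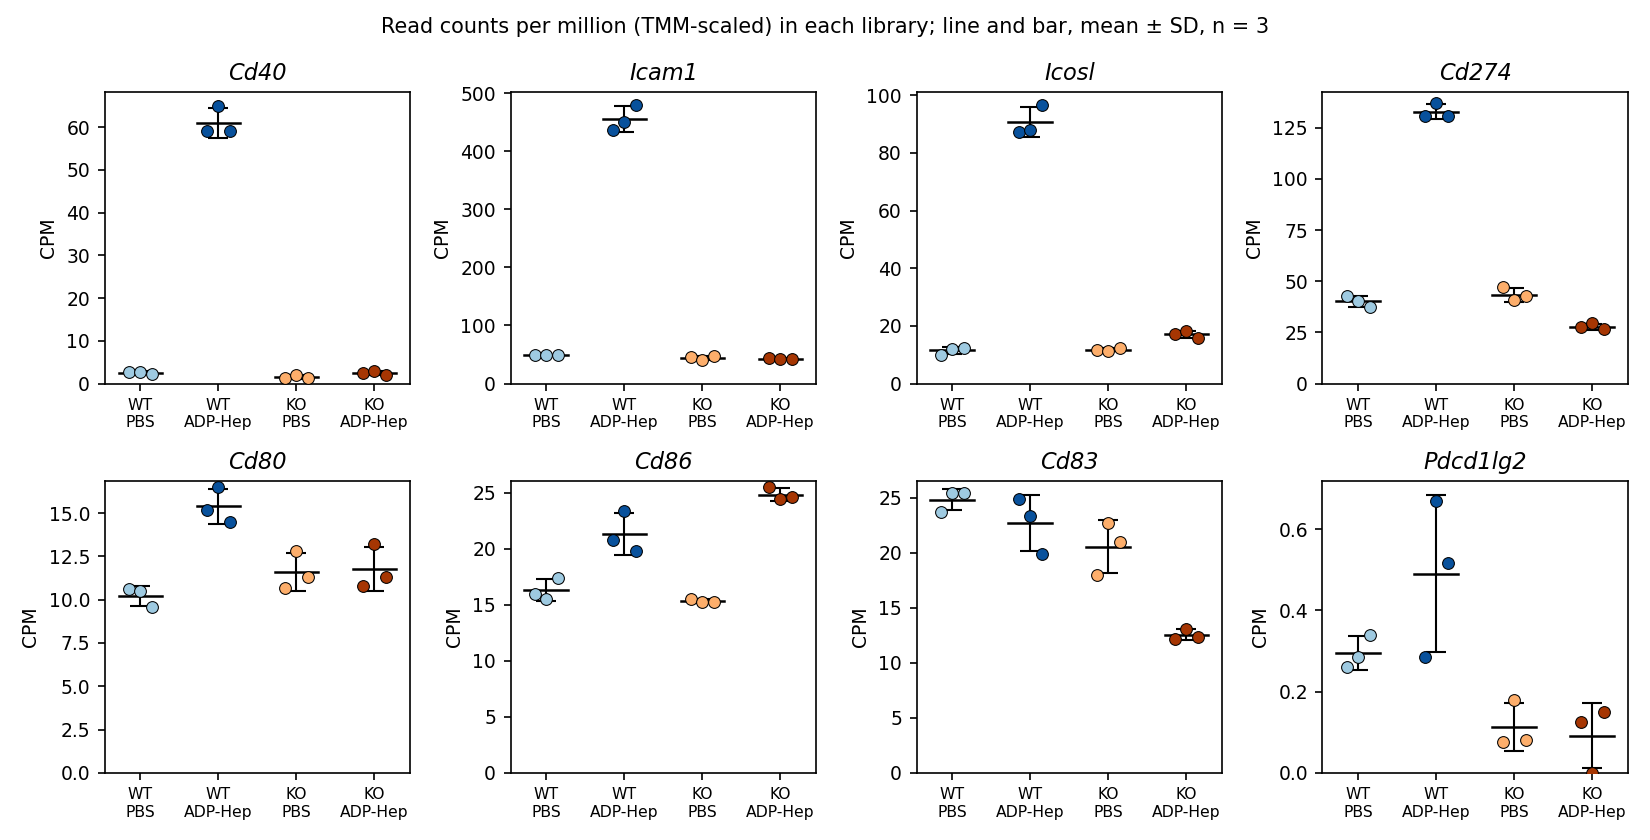
Level of each of the 8 ligand genes in every library, in TMM-scaled CPM on a linear axis from 0, by group. Points are libraries, and the line and bar are the mean ± SD of 3. Cd40, Icam1, Icosl and Cd274 stand far above all other groups in WT cells with ADP-Hep, while Cd83 is lowest and Cd86 highest in KO cells with ADP-Hep.

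In KO macrophages the same treatment did not raise Icam1 or Cd80 detectably, raised Cd40, Icosl and Cd86 by less than 2-fold, and lowered Cd274 and Cd83. Of the 7 tested genes, 3 were called higher and 2 lower, with no change reaching 2-fold and a median log2 change of -0.0063 against 0.0052 over all genes tested. The background in KO cells was 13.7% of all genes called higher and 15.3% lower (1678 and 1870 genes, or 2360 and 1483 with library totals).

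Icam1 read 44.8, 40.5 and 47.1 CPM with PBS and 43.8, 42.7 and 41.5 CPM with ADP-Hep in KO cells, and the groups overlapped. Its log2 change was -0.044 ± 0.06 (95% confidence interval -0.16 to 0.07, adjusted p = 0.62, edgeR). Cd80 likewise overlapped, at 10.7, 12.8 and 11.3 CPM with PBS and 10.8, 13.2 and 11.3 CPM with ADP-Hep, with an interval of -0.2 to 0.19 on the log2 scale (adjusted p = 0.97). Each interval excludes the log2 change that the same gene had in WT cells.

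Cd40 read 1.34, 2.04 and 1.21 CPM with PBS in KO cells, from 18, 34 and 15 counts, and 2.56, 2.83 and 1.99 CPM with ADP-Hep, from 61, 36 and 40 counts. The groups overlapped by 1 library, and the log2 change was 0.62 ± 0.21 (adjusted p = 0.032, edgeR). This call was lost without KO PBS replicate 1 (0.52, adjusted p = 0.13), KO PBS replicate 3 (0.49, 0.14), KO ADP-Hep replicate 1 (0.56, 0.12) or KO ADP-Hep replicate 3 (0.54, 0.079). It was also lost with limma-voom (adjusted p = 0.066) and in a fit of the KO groups alone (0.051). Over all alternatives except glmTreat its adjusted p ran from 0.0084 to 0.14.

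Icosl kept a small response without Alpk1. It read 11.6, 11.4 and 12.2 CPM with PBS and 17.3, 18.1 and 15.7 CPM with ADP-Hep in KO cells, with no overlap. The log2 change was 0.53 ± 0.09 (1.45-fold, adjusted p = 6.6e-05, edgeR).

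Cd86 rose in KO cells too. It went from 15.5, 15.2 and 15.2 CPM with PBS to 25.5, 24.4 and 24.6 CPM with ADP-Hep, a log2 change of 0.71 ± 0.08 (1.63-fold, adjusted p = 1.5e-07, edgeR). The groups did not overlap, and the 3 KO libraries with ADP-Hep were above all 9 other libraries.

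Cd274 and Cd83 fell in KO cells. Cd274 went from 47.3, 40.6 and 42.6 CPM with PBS to 27.4, 29.5 and 26.5 CPM with ADP-Hep, a fall of 1.57-fold (log2 change -0.65 ± 0.07, adjusted p = 6.6e-08, edgeR). Cd83 went from 18.0, 22.7 and 21.0 CPM to 12.2, 13.1 and 12.3 CPM, a fall of 1.65-fold (log2 change -0.73 ± 0.09, adjusted p = 1.6e-06). In both genes the groups did not overlap. Neutrophil markers also fell in these libraries: 4 of 7 tested were called lower and 0 higher, against 15.3% and 13.7% of all genes. The 9 markers summed to 223 to 251 CPM with PBS and 158 to 166 CPM with ADP-Hep. Csf3r was the largest part of this sum, with group means of 124 and 81.8 CPM. In WT cells 3 of the 7 were called higher and 1 lower. Csf3r fell alike in both genotypes (log2 change -0.58 ± 0.08 in WT and -0.61 ± 0.07 in KO cells). The part of the neutrophil markers in the falls of Cd274 and Cd83 was not tested. None of the 5 KO changes was called against a null hypothesis of at most 1.5-fold (glmTreat adjusted p = 0.7 to 1).

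**Figure D2:**
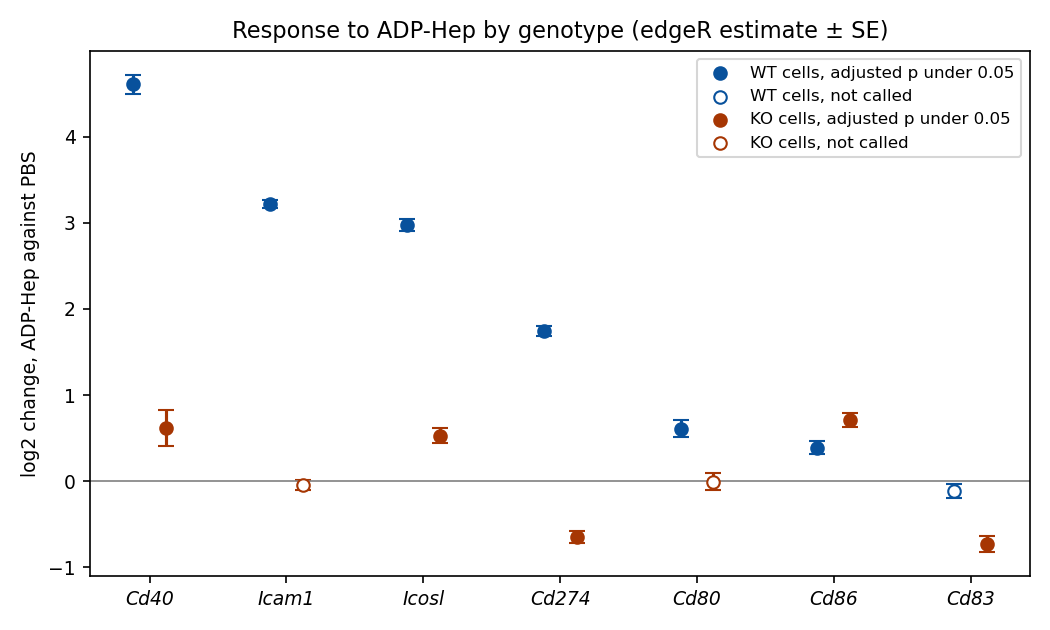
Log2 change with ADP-Hep against PBS for the 7 tested ligand genes in WT and in KO cells, as edgeR estimate ± SE; filled points had an adjusted p under 0.05 and open points did not. Cd40, Icam1, Icosl and Cd274 separate the genotypes by more than 2 on the log2 scale, and Cd86 is the one gene whose KO point lies above its WT point.

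The genotypes were compared directly through the difference between the responses, the WT log2 change minus the KO log2 change. All 7 tested genes differed, 6 with the higher value in WT cells and 1, Cd86, with the higher value in KO cells. Over all genes tested, 24.6% were called higher in this comparison and 24.9% lower (3018 and 3053 genes, or 2020 and 4507 with library totals). The difference was 3.99 ± 0.29 for Cd40 (adjusted p = 1.7e-11), 3.26 ± 0.08 for Icam1 (1.3e-20), 2.43 ± 0.12 for Icosl (1.1e-14) and 2.39 ± 0.09 for Cd274 (5.9e-17), all by edgeR. For Cd274 the rise in WT cells and the fall in KO cells both added to the difference.

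Cd80 and Cd83 each had a difference of 0.61, with SE 0.14 for Cd80 (adjusted p = 7e-04) and 0.12 for Cd83 (adjusted p = 0.00021, edgeR). They reached it in different ways, Cd80 with a rise in WT cells and no detectable change in KO cells, Cd83 with no call in WT cells and a fall in KO cells. Against a null hypothesis of at most a 1.5-fold change, neither difference was called (glmTreat adjusted p = 0.78 for Cd80 and 0.76 for Cd83). For Cd86 the difference was -0.32 ± 0.11 (adjusted p = 0.02). This last call was lost without WT PBS replicate 3 (-0.26, adjusted p = 0.075) and with DESeq2 (-0.30, adjusted p = 0.068). Its adjusted p ran from 0.001 to 0.075 over the alternatives except glmTreat.

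Without stimulus the genotypes were close. Of the 7 tested genes 0 were higher and 2 lower in KO than in WT cells under PBS, with a median log2 difference of -0.1 against 0.0013 over all genes, of which 5.57% were called higher and 5.82% lower. Cd40 was lower by a log2 difference of -0.67 ± 0.22 (adjusted p = 0.046, edgeR), with every KO library below every WT library. Cd83 was lower by -0.27 ± 0.09 (adjusted p = 0.043), also without overlap. Both calls are at the threshold. Cd40 lost its call without WT PBS replicate 1 or 2, KO PBS replicate 1 or 3 or KO ADP-Hep replicate 1 (adjusted p = 0.055 to 0.19). Cd83 lost its call without WT PBS replicate 2 or 3, WT ADP-Hep replicate 2, KO PBS replicate 1 or 3, KO ADP-Hep replicate 1 or the unnumbered KO ADP-Hep library (adjusted p = 0.052 to 0.26). Icosl (log2 difference 0.021 ± 0.10, adjusted p = 0.93), Cd274 (0.12 ± 0.07, 0.28), Cd86 (-0.1 ± 0.08, 0.48), Icam1 (-0.15 ± 0.06, 0.1) and Cd80 (0.2 ± 0.10, 0.24) were not called. Pdcd1lg2, from its low counts in the unfiltered fit, differed by -1.32 ± 0.78 (adjusted p = 0.43).

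Under ADP-Hep, 6 of the 7 tested genes were lower in KO than in WT cells and 1, Cd86, was higher, against 32% of all genes called lower and 32.8% higher (3929 and 4016 genes, or 2722 and 5609 with library totals). The median log2 difference was -2.3, against 0.014 over all genes. Cd40 was 25.1-fold lower (log2 difference -4.65 ± 0.11, adjusted p = 4e-22, edgeR), Icam1 10.7-fold lower (-3.42 ± 0.06, 4.6e-25), Icosl 5.32-fold lower (-2.41 ± 0.07, 3.2e-20) and Cd274 4.82-fold lower (-2.27 ± 0.06, 1.3e-20). Cd83 was 1.84-fold lower (-0.88 ± 0.09, 3.4e-09) and Cd80 1.33-fold lower (-0.42 ± 0.09, 0.00036). Cd86 was 1.16-fold higher (0.21 ± 0.07, adjusted p = 0.012), a call lost without WT ADP-Hep replicate 1 (0.18, 0.058) or KO ADP-Hep replicate 1 (0.19, 0.052) and with DESeq2 (0.20, 0.051). Its adjusted p ran from 1e-04 to 0.058 over the alternatives except glmTreat. Pdcd1lg2 was lower in KO cells in the unfiltered fit (-2.13 ± 0.68, adjusted p = 0.0059), on 28 counts in WT and 6 in KO libraries. Neutrophil markers were also lower in this comparison: of 7 tested, 6 were called lower and 1 higher in KO cells (median log2 difference -0.68), and the 9 markers summed to 185 to 205 CPM in WT and 158 to 166 CPM in KO libraries. Of 4 tested dendritic cell markers 2 were called lower, and the 10 markers summed to 8.4 to 8.89 CPM in WT and 1.64 to 2.83 CPM in KO libraries. Most of the WT sum was Fscn1 (group mean 4.71 CPM) and Ccl22 (1.77 CPM). The part of the neutrophil and dendritic cell markers in the differences was not tested. The ADP-Hep comparison shares its libraries with the responses above and is not separate evidence.

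Levels of different genes were set side by side only as CPM per kilobase of merged exons. In WT cells with PBS, Icam1 (11.2 ± 0.133, SD, n = 3), Cd274 (11.1 ± 0.763) and Cd83 (9.65 ± 0.381) were the most abundant of the 8 transcripts, and the first 2 did not differ beyond their spread. Cd86 (4.45 ± 0.276), Cd80 (2.76 ± 0.159) and Icosl (2.49 ± 0.274) followed, with Cd80 and Icosl within their spread of each other. Cd40 (0.751 ± 0.1) and Pdcd1lg2 (0.15 ± 0.0207) came last.

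With ADP-Hep the order in WT cells changed. Icam1 (105 ± 5.04 CPM per kb) and Cd274 (36.8 ± 0.96) led, Icosl (19.6 ± 1.14) and Cd40 (17.9 ± 1.01) moved above Cd83 (8.82 ± 0.975), and Cd86 (5.83 ± 0.51) and Cd80 (4.16 ± 0.266) stood below them. Pdcd1lg2 stayed last, at 0.25 ± 0.0985. In KO cells with ADP-Hep, Icam1 (9.78 ± 0.258), Cd274 (7.68 ± 0.431) and Cd86 (6.79 ± 0.161) led, ahead of Cd83 (4.88 ± 0.193), Icosl (3.69 ± 0.265), Cd80 (3.18 ± 0.342), Cd40 (0.722 ± 0.126) and Pdcd1lg2 (0.0468 ± 0.041). With the longest transcript in place of merged exons as the length, Icosl (4.08 CPM per kb) stood above Cd80 (3.23) in WT cells with PBS and Icam1 (19.3) clearly above Cd274 (11.1). In KO cells with ADP-Hep, Cd86 (9.8) then stood above Cd274 (7.68) and Icosl (6.06) above Cd83 (5.07), so these orders rest on the length used.

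Within a gene, the 4 groups fell into several orders. For Cd40 the order was WT with ADP-Hep, WT with PBS (0.751), KO with ADP-Hep (0.722) and KO with PBS (0.449 ± 0.131 CPM per kb), and the middle 2 groups overlapped in their libraries. For Icam1 the order was WT with ADP-Hep, WT with PBS, KO with PBS (10.1 ± 0.771) and KO with ADP-Hep, and the 2 KO groups overlapped. For Icosl, KO with ADP-Hep came second, and the 2 PBS groups (2.49 and 2.54 ± 0.094) overlapped. For Cd274, the 2 PBS groups (11.1 and 12 ± 0.941) overlapped between the high WT and the low KO ADP-Hep groups. For Cd80, WT with ADP-Hep led and was called above KO with ADP-Hep (3.18), while KO with ADP-Hep and KO with PBS (3.13 ± 0.284), and KO and WT with PBS (2.76), were not called apart. For Cd86, KO with ADP-Hep led, followed by WT with ADP-Hep and by the PBS groups (4.45 and 4.17 ± 0.0557), which were not called apart. For Cd83, WT with PBS, WT with ADP-Hep and KO with PBS (7.99 ± 0.925) followed each other with overlapping neighbours, and KO with ADP-Hep lay below them.

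**Figure D3:**
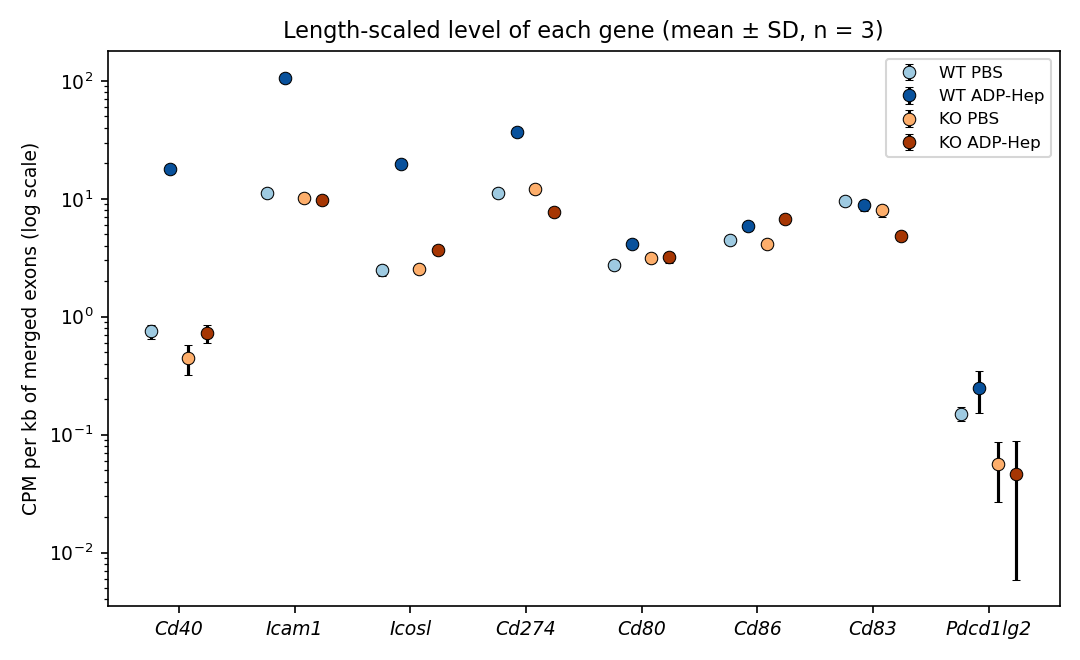
CPM per kilobase of merged exons of the 8 ligand genes in the 4 groups on a log axis, with mean ± SD of 3 libraries. Cd40 spans from 0.449 to 17.9 across the groups, whereas Cd80 and Cd86 stay within 2.76 to 6.79, and Pdcd1lg2 is the lowest gene in every group.

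Companion genes were described from lists chosen with earlier results of these data known, so their directions are not independent evidence. Of 18 other B7, TNF-family and inhibitory ligands for lymphocytes, 13 were tested, of which 10 were called higher and 2 lower in WT cells (median log2 change 0.55) and 5 higher and 2 lower in KO cells. Of all genes tested, 31.9% were called higher and 31.6% lower in WT cells, and 13.7% and 15.3% in KO cells. The count of 2 lower in KO cells is near its share. Tnfsf4, which encodes OX40 ligand, rose by 3.63 ± 0.24 in WT cells (adjusted p = 7.8e-13) and by 1.38 ± 0.33 in KO cells (adjusted p = 0.0023, edgeR). Tnfrsf14, the receptor HVEM, rose by 1.14 ± 0.07 in WT cells, and Cd47, which gives a signal against phagocytosis, rose by 0.68 ± 0.05 in WT and 0.23 ± 0.05 in KO cells. Vsir, the B7-family inhibitor VISTA, went the other way in WT cells, from a group mean of 343 to 137 CPM (log2 change -1.32 ± 0.05, adjusted p = 1.1e-17), and was 329 and 362 CPM in KO cells (0.14 ± 0.05, adjusted p = 0.035). In KO cells Cd48 fell by 0.41 ± 0.06 and Lgals9, galectin-9, rose by 0.22 ± 0.05 on the log2 scale. The number called higher in KO cells dropped from 5 to 3 without KO PBS replicate 1 or 3 or KO ADP-Hep replicate 1 or 3. The number called lower was 1 without KO PBS replicate 1 or the unnumbered KO ADP-Hep library, and 1 in WT cells without WT PBS replicate 3.

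Of 12 integrin ligands and leukocyte integrins, 9 were tested, of which 5 were called higher and 1 lower in WT cells and 2 higher and 0 lower in KO cells (1 lower without KO PBS replicate 3). The shares over all genes were 31.9% and 31.6% in WT cells and 13.7% and 15.3% in KO cells. The KO counts of this list are near those shares. Vcam1, the adhesion ligand of the integrin VLA-4, rose from 0.605 to 12.8 CPM in WT cells (log2 change 4.29 ± 0.21, adjusted p = 2.6e-15, edgeR). Itgal, the alpha chain of the ICAM-1 receptor LFA-1, rose by 0.96 ± 0.05 in WT and 0.18 ± 0.05 in KO cells, and Itga4 by 0.81 ± 0.05 and 0.34 ± 0.05. Itgb1, a beta chain of VLA-4, rose by 0.32 ± 0.05 in WT cells.

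All 14 genes for CD40 signalling adaptors and kinases were tested, and 12 were called higher and 1 lower in WT cells. The shares over all genes were 31.9% and 31.6%. Traf1 rose by 5.45 ± 0.10, Birc3 by 2.3 ± 0.05, Tank by 2.18 ± 0.07 and Traf3 by 1.04 ± 0.05 on the log2 scale. In KO cells 4 were called higher and 2 lower, among them Map3k14, the kinase NIK (0.4 ± 0.08), Birc2 (0.32 ± 0.08) and Ikbkg (0.16 ± 0.05). The shares over all genes in KO cells were 13.7% higher and 15.3% lower, and the count called lower is near its share. The count of 4 was 2 without the unnumbered KO ADP-Hep library. The count of 2 was 0 to 1 without KO PBS replicate 2 or 3 or any 1 of the KO ADP-Hep libraries.

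All 11 NF-kB subunits and inhibitors were called higher in WT cells, with a median log2 change of 2.0, and all 11 had a higher response in WT than in KO cells. Over all genes tested these shares were 31.9% and 24.6%. Nfkbie rose by 4.19 ± 0.08, Nfkbia by 3.0 ± 0.06, Nfkb2 by 2.96 ± 0.06 and Tnfaip3, which encodes the feedback inhibitor A20, by 2.31 ± 0.06 (adjusted p = 1.2e-21 or less, edgeR). In KO cells 2 were called higher and 2 lower, among them Nfkb2 (0.26 ± 0.07), Nfkbiz (0.28 ± 0.07) and Rela (-0.21 ± 0.06). Over all genes tested, 13.7% were called higher and 15.3% lower in KO cells, and both list counts are near those shares. The lower count ran from 0 to 3, and the higher from 1 to 2, as single libraries were left out: KO PBS replicate 2 for the higher count, and KO PBS replicate 1 or 3, KO ADP-Hep replicate 1 or the unnumbered KO ADP-Hep library for the lower.

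Of 24 interferon-STAT-IRF regulators 23 were tested, and 16 were called higher and 2 lower in WT cells. The shares over all genes there were 31.9% and 31.6%. Socs3, a feedback inhibitor of STAT signalling, rose by 5.32 ± 0.11, Jak2 by 1.57 ± 0.05 and Irf1, a known regulator of Cd274, by 1.54 ± 0.07 in WT cells. Irf8, a myeloid lineage factor, fell by 1.03 ± 0.05. In KO cells 9 were called higher and 1 lower, against 13.7% and 15.3% of all genes. Irf9 rose by 0.49 ± 0.06 and Irf5 by 0.29 ± 0.05 in KO cells. Irf1 also rose there, by 0.24 ± 0.07 (adjusted p = 0.017, edgeR), and its response differed between genotypes by 1.3 ± 0.10 (adjusted p = 6.5e-11). The part of these regulators in the changes of Cd274 was not tested.

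Of the 11 genes for the turnover and cis partners of these ligands, all tested, 3 were called higher and 5 lower in WT cells, where 31.9% and 31.6% of all genes were. In KO cells 1 was called higher and 1 lower, against 13.7% and 15.3% of all genes. These counts are near those shares. The KO counts fell to 0 without KO PBS replicate 3 or KO ADP-Hep replicate 1. Without KO PBS replicate 1 the count called higher was also 0. Adam17, a sheddase of cell-surface proteins, rose by 0.69 ± 0.04 in WT cells (adjusted p = 2.8e-13) and fell by 0.14 ± 0.04 in KO cells (0.013, edgeR). Cop1, an E3 ubiquitin ligase, rose by 0.74 ± 0.06, and Cmtm4, a stabiliser of the PD-L1 protein, fell by 0.45 ± 0.05 in WT cells. March1, the ubiquitin ligase that removes CD86 and MHC class II from the surface, rose by 0.42 ± 0.07 in WT and 0.2 ± 0.07 in KO cells.

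Of 6 receptors of the T-cell side, Cd28 alone passed the filter. It fell in WT cells from 168 to 34.6 CPM (log2 change -2.28 ± 0.06, adjusted p = 6e-21) and in KO cells from 196 to 130 CPM (-0.58 ± 0.05, 6.1e-09, edgeR), and the responses differed by -1.69 ± 0.08 (adjusted p = 3.7e-15). Cd3e and Cd40lg were at 0 counts in all libraries, and Ctla4 and Pdcd1 had 1 count each over all of them.

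**Figure D4:**
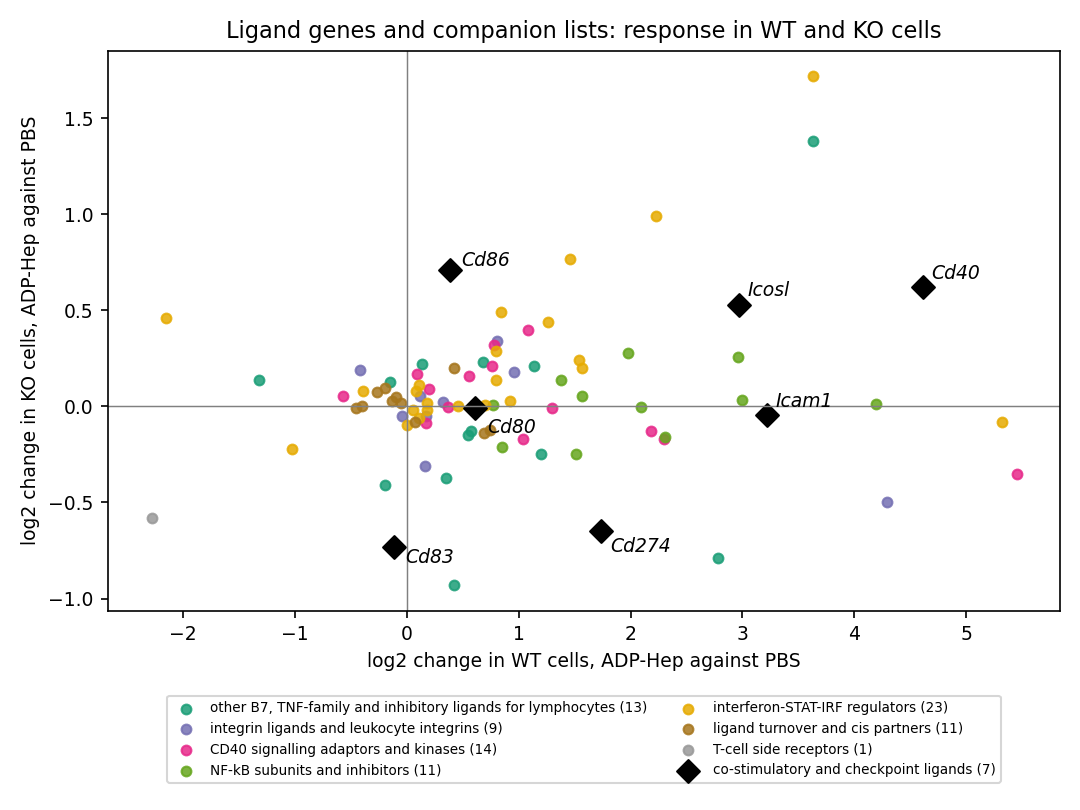
Log2 change with ADP-Hep against PBS in WT cells (horizontal) and in KO cells (vertical) for the tested ligand genes, as black diamonds, and for the tested genes of the companion lists. The points spread from about Cd28 (-2.28) to Traf1 (5.45) along the WT axis and much less along the KO axis. There Socs1, of the interferon-STAT-IRF list, reaches 1.72 and Tnfsf4 1.38.

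For each tested ligand gene, the genes with the most similar pattern over the 4 group means were found by the smallest root mean square difference of centred log2(CPM + 0.5), among tested genes with at least 5 CPM in 1 group. With 4 group means, this is a description of shape only. Cd40 was nearest to Cxcl1 (0.169), Serpinb2 (0.187) and Fpr1 (0.2), and Icam1 to Tma16 (0.0473), Lpar1 (0.0919) and Sod2 (0.101). Icosl was nearest to Psd (0.0761), Cdkn2b (0.106) and Treml4 (0.121). Cd274 was nearest to Ifrd1 (0.0497), Ppfibp2 (0.0919) and Tnfrsf1b (0.1), which share its rise in WT cells and its fall in KO cells. Cd80 was nearest to Zcchc10 (0.0126), Tapbp (0.0126) and Pgd (0.0165), and Cd86 to Homer1 (0.0439), F11r (0.046) and Palld (0.0495). Cd83 was nearest to Cdk18 (0.0362), Fam129b (0.0502) and Gpr137b-ps (0.0579).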

How the data were processed

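RNA of 12 mouse macrophage libraries was sequenced after preparation with a stranded mRNA kit, per the labels' protocols. The table the authors deposited holds raw read counts, whole numbers with 1 row per gene. The submitters' processing notes list the builds mm10 and hg38 and the tools DESeq2, RSEM, featureCounts, STAR, Trim Galore and FastQC. Neither what each tool did nor its version, annotation or strand setting is given in the sources used here, so reads of overlapping genes may have been shared.

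Columns were assigned to groups by name. A KO ADP-Hep column whose number matched no label was kept in its group without a number. Of 56748 rows, 19206 were not used, because the KO columns there were shifted down by 1 row against the gene identifiers. A margin of 100 rows was left, and the lowest row of a ligand gene was row 20872. In 20 simulated slips the break was placed within 22 rows. All 37542 identifiers used were found in GENCODE M21 (mm10). The file stored 26 symbols as dates, and these were named by identifier.

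Counts were tested in R 4.3.3 with edgeR 4.0.16: TMM scaling, filterByExpr (12261 genes kept) and 1 robust quasi-likelihood model of the 4 group means. A gene was called where its p, adjusted by Benjamini-Hochberg over all genes tested, was under 0.05. SE is the log2 change divided by the square root of its F statistic, an approximation. The biological coefficient of variation was 4.81%, and chi-square per degree of freedom between replicates was 2.0 to 10.88, so no pair of libraries matched within sampling noise. The 95% confidence intervals are the log2 change ± the normal quantile times this SE, so they rest on the spread between libraries. The floor for the library at 0 counts covers counting error only. The model was tested on simulated counts.

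The ligand genes and lists were chosen with earlier results of these data known. The rule for named genes took Alpk1, all 8 ligand genes, up to 4 called genes per list with the smallest p in WT cells and up to 3 in KO cells, and the 3 most similar genes per ligand gene. Other genes named were chosen after their values were seen. Alternatives were DESeq2 1.42.0, limma-voom (limma 3.58.1), glmTreat, other scalings, filters and row sets, and leaving out each library. Some results of single genes are not reported here.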

Additional observations from a re-analysis of the deposited data

Results flagged for a closer look

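Each of the 7 tested ligand genes was set apart because its response to ADP-Hep differed between WT and KO cells by the test of the difference itself (WT log2 change minus KO log2 change, edgeR). The difference was 3.99 for Cd40, 3.26 for Icam1, 2.43 for Icosl and 2.39 for Cd274. It was 0.61 for Cd80 and also 0.61 for Cd83. For Cd86 it was -0.32, the one ligand gene with the higher response in KO cells. For Cd274 the responses had opposite signs, and both passed the test in their own genotype.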

How the results depend on the processing

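Over 24 alternatives, 833 tests of single ligand genes were recomputed, of which 788 kept their direction and side of the threshold, 44 lost the call, 1 gained one and 0 reversed. The rises of Cd40, Icam1, Icosl and Cd274 in WT cells, and their differences between genotypes, were called in all alternatives that gave a value. The number of ligand genes called lower in WT cells was 1 with library totals only, against 0. With glmTreat against 1.5-fold, the KO response had 0 genes higher and 0 lower, the difference between responses 0 with the higher value in KO cells, and KO against WT 0 lower under PBS and 0 higher under ADP-Hep. DESeq2 gave 0, 1 and 0 for those last 3 counts. With glmTreat the rises of Cd80 and Cd86 in WT cells and the differences of Cd80 and Cd83 also lost their calls. So did the lower level of Cd80 in KO than in WT cells under ADP-Hep. The count lower in KO than WT under PBS, 2 as reported, was 1 with library totals, limma-voom, the replicate block and a fit of the groups compared only, 0 without robust estimation, and 0 to 2 when single libraries were left out. The counts with the higher value in KO cells, in the difference and under ADP-Hep, ran from 0 to 1 when single libraries were left out. No pairing by replicate number was seen: same-numbered libraries correlated at -0.37 to 0.219 in their deviations from group means (4 of 15 pairs over 0.1). Differently numbered libraries of different groups correlated at -0.224 to 0.242. With 3 libraries per group, these values cannot show whether the samples were paired. With the replicate number as a block, on the 11 numbered libraries, the KO response had 1169 genes higher and 1414 lower, against 1678 and 1870.

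Over all genes, glmTreat called 1083 higher and 1055 lower in WT cells, 54 and 113 in KO cells, 820 and 706 in the difference, 15 and 16 between genotypes under PBS and 1083 and 1121 under ADP-Hep. All rows as deposited gave 1632 and 1518 under PBS, and leaving out KO PBS replicate 1 gave 438 and 391. Library totals in place of TMM gave the splits printed beside the reported counts, with median log2 shifts of -0.12 in WT cells, -0.16 in the difference and 0.17 under ADP-Hep. Of 1596 list counts recomputed without glmTreat, 75 moved by over 1.5 times. Of 4281 tests of other named genes, 156 lost the call, 17 gained one and 0 reversed. Depth limited Pdcd1lg2, with at most 15 counts in a library.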

Other observations

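Among ligands outside the genes followed above, 3 more with a higher response in WT than in KO cells were picked after their values were seen. Tnfsf9, which encodes 4-1BB ligand, changed by 2.78 ± 0.21 on the log2 scale in WT cells (adjusted p = 1.9e-11, edgeR) and by -0.79 ± 0.31 in KO cells (0.062), with a difference of 3.57 ± 0.39 (3.4e-08). Pvr, the ligand CD155 of TIGIT and DNAM-1, changed by 1.2 ± 0.09 in WT cells (1.2e-11) and by -0.25 ± 0.10 in KO cells (0.072), with a difference of 1.45 ± 0.13 (2.6e-09). Cd200, an inhibitory ligand for myeloid cells, changed by 0.42 ± 0.17 in WT cells (0.038) and by -0.93 ± 0.30 in KO cells (0.02), with a difference of 1.35 ± 0.34 (0.0021). With PBS, its group mean was already 2.94 CPM in WT and 1.25 CPM in KO cells. Counts were low in the KO groups, at 53 with PBS and 37 with ADP-Hep for Cd200, and 47 and 36 for Tnfsf9.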
